A study of Mus musculus with 13 samples.

Results

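The transcripts described here belong to 10 genes, *Clu*, *Trf*, *Cp*, *Shbg*, *Cst9*, *Cst12*, *Serpina5*, *Sparc*, *Defb19* and *Tuba3b*, chosen by name as transport and protective proteins of Sertoli cells, out of 27111 named genes in the deposited table. They were measured by RNA sequencing in Sertoli cells enriched from testis of 13 wild-type C57Bl/6J mice ("Bl6 wt" in the labels), adult males of 3 to 5 months. The 7 mice of the MSUS group (maternal separation at unpredictable times together with unpredictable stress of the mother) had been taken from their mother for 3 h a day between postnatal days 1 and 14, while the mother was exposed to a swim in cold water (18°C, 5 min) or to restraint in a tube (20 min). The 6 control mice had been left undisturbed. Diploid, large cells with a high mitochondrial signal were sorted without a transgene or a surface marker, so the samples are enriched and not pure, and each sample was its own library made from 5 ng of RNA. Litters and cages were not analysed here, and a p-value covers only the spread between these samples. The question addressed is whether these genes, with which Sertoli cells serve germ cells, differ in adult males that had been stressed early in life.

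Sertoli cells line the seminiferous tubules, and their tight junctions form the blood-testis barrier. Germ cells behind this barrier have no direct access to plasma, and Sertoli cells secrete their own carrier proteins for iron, copper, lipids and androgens into the tubule. They also secrete inhibitors of proteases, chaperones and antimicrobial peptides, which act in tubule remodelling, in the clearance of residual cytoplasm and in immune protection. Of the 10 genes, *Tuba3b* is of another kind, since it encodes an alpha-tubulin, a protein of the cytoskeleton that is not secreted.

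Between 12701776 and 18649945 estimated counts were deposited per sample, and 9776853 to 14383367 of them were on named genes. Levels are given as log2 CPM (counts scaled to a common total over the 14421 named genes that passed the count filter, with TMM factors and a prior count of 2). The label of the cells was checked with 9 Sertoli cell markers, all of which were tested, and their summed level was between 12.40 and 12.72 log2 CPM in controls and between 12.39 and 12.67 in MSUS samples. The summed level of 4 elongated spermatid markers was between 9.73 and 10.43 in controls and between 9.51 and 10.79 in MSUS samples, and that of 6 spermatocyte markers was between 7.70 and 8.13 in controls and between 7.03 and 8.33 in MSUS samples. Leydig cell markers (5 of 5 tested, 3 with a log2 fold change above 0, median 0.29) summed to between 4.91 and 6.06 in controls and between 5.32 and 6.38 in MSUS samples. Peritubular myoid markers (4 of 5 tested, all 4 above 0, median 0.66) summed to between 3.01 and 5.97 in controls and between 3.52 and 6.54 in MSUS samples, and endothelial markers (5 of 5 tested, 4 above 0, median 0.22) to between 5.77 and 6.14 and between 5.77 and 6.23. Of these 3 lists, 1 gene passed the study's threshold of an unadjusted p under 0.05, the endothelial receptor gene *Tek*, which was higher in MSUS (log2 fold change 0.75, SE 0.31, limma voom adjusted p = 0.878). Spermatogonia markers (4 of 6 tested, median -0.02) and round spermatid markers (5 of 5 tested, median 0.23) had 0 genes past it. Of 5 macrophage markers, 0 had enough counts to be tested. Summed CPM does not allow for transcript length, so these sums do not compare one list with another. Per kb of exon in controls, the elongated spermatid markers had 687 (*Prm2*), 557 (*Tnp1*), 276 (*Tnp2*) and 267 CPM (*Prm1*). The 9 Sertoli cell markers had between 9.62 (*Fshr*) and 591 CPM per kb (*Amhr2*), so transcripts of spermatids were abundant in the preparation. The part of these cell types in the results was not tested. In samples of this kind, fewer cells of a type and less RNA per cell cannot be told apart.

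The 10 genes held 1.47% ± 0.0743 (SD, n = 6) of the named counts in controls and 1.38% ± 0.0606 (SD, n = 7) in MSUS samples, and *Clu* alone accounted for 58.2% to 62.4% of their counts. Levels of different genes were compared as CPM per kb of exon, which was possible for 22921 of the named genes. In controls, *Clu* came first among the 10 with 2518 ± 173 CPM per kb (SD, n = 6), rank 12 of all genes with a length. *Cst9* followed with 1443 ± 146 CPM per kb (rank 16), *Defb19* with 1260 ± 162 (rank 19), *Cst12* with 1203 ± 106 (rank 20) and *Sparc* with 714 ± 45.5 (rank 32). These 5 genes were thus among the most abundant transcripts of the preparation. *Serpina5* had 282 ± 19.2 CPM per kb (rank 84), *Tuba3b* 85.8 ± 12.2 (rank 370), *Trf* 50.2 ± 10.8 (rank 810) and *Shbg* 38.6 ± 2.98 (rank 1122). *Cp* was nearly absent with 0.0771 ± 0.0446 CPM per kb, rank 15839. Among neighbours in this order, the ranges of the control samples overlapped for *Cst9* and *Defb19*, for *Defb19* and *Cst12*, and for *Trf* and *Shbg*. The order was kept in 6 of 6 controls for *Cst9* over *Defb19*, in 4 of 6 for *Defb19* over *Cst12* and in 5 of 6 for *Trf* over *Shbg*. The other neighbours did not overlap.

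**Figure D1:**
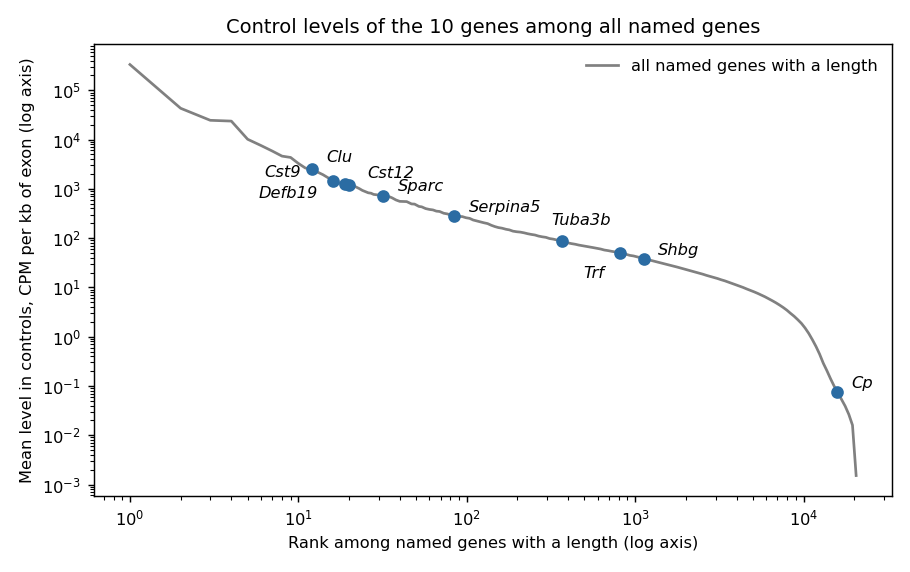
Mean level in the 6 control samples (CPM per kb of exon, log axis) against the rank among named genes with a length (log axis), with the line for all such genes and points for the 10 genes. *Clu*, *Cst9*, *Defb19*, *Cst12* and *Sparc* lie within the first 32 ranks, and *Cp* lies at rank 15839.

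The differences between MSUS and control samples were small for the abundant genes. By the threshold of the study, an unadjusted p under 0.05 in limma with voom, 1 of the 10 genes differed, *Defb19*, which was lower in MSUS. Over all 14421 genes tested, 5.42% passed this threshold (781 genes, 435 higher and 346 lower in MSUS; when only the library size was used for scaling, 325 higher and 469 lower), with 3.02% higher and 2.4% lower in MSUS, so 1 of 10 is not far from the background. An exact permutation test for each gene (two-sided on log2 CPM, smallest possible p 0.000583, chosen after seeing the data) gave p under 0.05 for 0 of the 10 genes, with the smallest p for *Defb19* (exact p = 0.0676). After Benjamini-Hochberg adjustment, 0 of the 14421 genes had an adjusted p under 0.05 by limma voom, and the smallest was 0.878. The log2 fold change was below 0 for 8 of the 10 genes, with a median of -0.09, against 50.5% of all genes tested and a median of -0.0018 over them. The groups overlapped for all 10 genes, whereas 0.132% of the genes tested had groups that did not overlap and 0.0555% were entirely lower in MSUS.

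**Figure D2:**
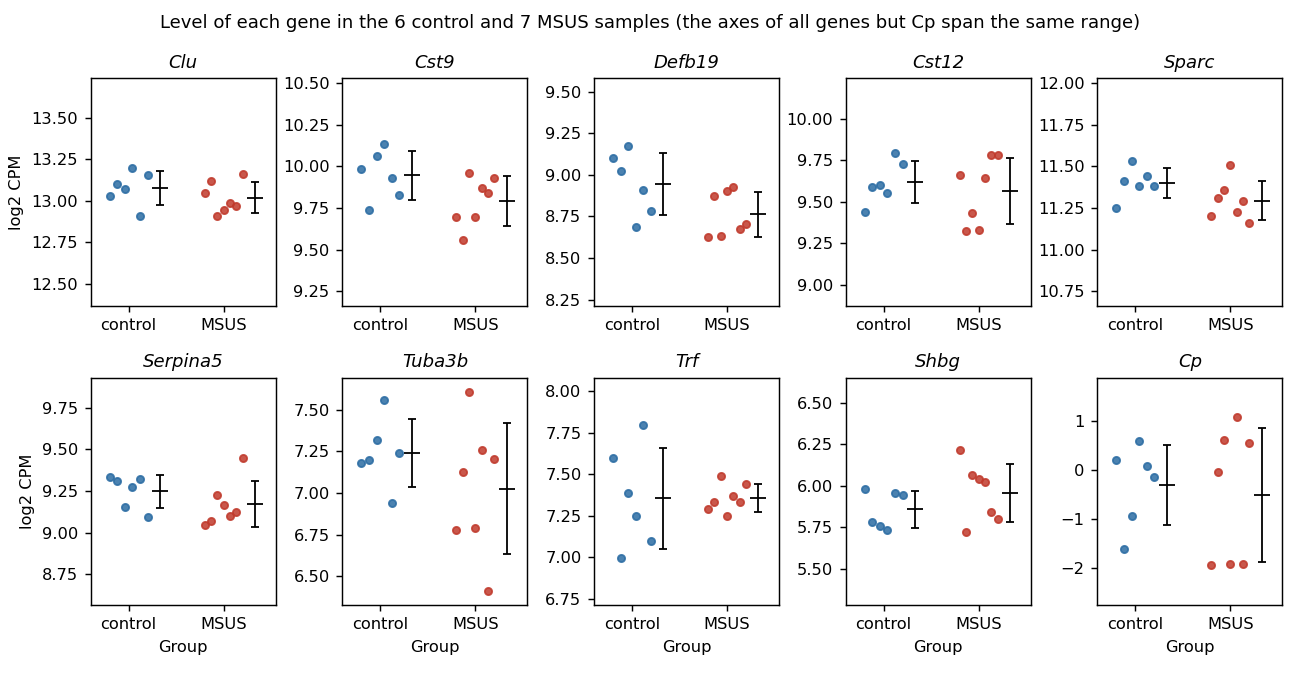
Level (log2 CPM) of each of the 10 genes in the 6 control (blue) and 7 MSUS (red) samples, with the group mean and SD as a bar beside the points. The groups overlap for every gene, and all 7 MSUS samples lie below the control mean of *Defb19* (8.95).

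*Clu* encodes clusterin, an extracellular chaperone that binds lipids and misfolded proteins. The gene lies on chromosome 14 from 65968483 to 65981547 (GRCm38, GENCODE vM21 annotation) and has 9 exons in its longest transcript. Its level was 12.91 in the lowest, 13.09 in the median and 13.20 in the highest control sample. In MSUS samples the lowest level was 12.91, the median 12.99 and the highest 13.16. The groups covered nearly the same range, and 5 of 7 MSUS samples were below the control mean. This gave a log2 fold change of -0.06 (SE 0.05, 95% interval -0.17 to 0.05, limma voom p = 0.297, adjusted p = 0.902, exact permutation p = 0.294). Among 6 lipoprotein receptors and related uptake receptors, 4 were tested and 0 passed the threshold, with a median log2 fold change of 0.01. The most abundant of them in CPM was *Lrp8*, a receptor that also takes up clusterin, with a log2 fold change of 0.12 (SE 0.09, limma voom adjusted p = 0.89).

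*Trf* and *Cp* encode the metal carriers. Transferrin, the product of *Trf*, carries iron to germ cells, and ceruloplasmin, the product of *Cp*, holds copper and oxidizes iron so that transferrin can bind it. *Trf* lies on chromosome 9 from 103204001 to 103230444. Its level was between 6.996 and 7.80 in controls (median 7.32) and between 7.25 and 7.49 in MSUS samples (median 7.33). The means were the same within 0.01 (log2 fold change 0.01, SE 0.10, 95% interval -0.21 to 0.22, limma voom p = 0.932, adjusted p = 0.989, exact permutation p = 0.984), while the SD was 0.30 in controls and 0.08 in MSUS samples. The MSUS samples all fell within the control range. The level of *Trf* depends on how reads were divided, because 77.4% of the 100-base windows of its longest transcript (1912 of 2472) are also in *Gm20425*, a gene model on the same strand that overlaps it, and its estimated counts were not whole numbers in 13 of 13 samples.

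The data went against the label for *Cp*, on chromosome 3 from 19957054 to 20009145. It had 2 to 13 counts in controls and 1 to 23 in MSUS samples. Counts of 1 in MSUS 1, 11 and 13 stood beside counts of 12 to 23 in MSUS 5, 23 and 26. No difference was detectable at this depth (log2 fold change -0.37, SE 0.71, 95% interval -1.86 to 1.12, limma voom p = 0.611, adjusted p = 0.949, exact permutation p = 0.748), and *Hps3*, which overlaps it on the opposite strand, had 61.0 CPM in controls. A list of 14 partners of iron and copper transport and storage had 13 tested members, of which 1 passed the threshold and was lower in MSUS, and 9 of 13 had a log2 fold change below 0 (median -0.04). The lower gene was *Ftl1*, the light chain of the iron store ferritin, with levels of 7.91 ± 0.22 (SD, n = 6) in controls and 7.68 ± 0.17 (SD, n = 7) in MSUS samples (log2 fold change -0.23, SE 0.09, limma voom adjusted p = 0.878). *Fth1*, the ferritin heavy chain and the most abundant of the list in CPM, had a log2 fold change of -0.10 (SE 0.06, limma voom adjusted p = 0.878).

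*Shbg* encodes the androgen-binding protein, which holds testosterone and its reduced form in the tubule fluid. It lies on chromosome 11 from 69614804 to 69617905. Controls lay between 5.74 and 5.98 (median 5.86) and MSUS samples between 5.72 and 6.21 (median 6.02). Of the MSUS samples, 4 were above every control and 1, MSUS 13, was below every control. *Shbg* had the largest positive log2 fold change of the 10 genes, 0.10 (SE 0.08, 95% interval -0.07 to 0.27), which did not pass the threshold (limma voom p = 0.245, adjusted p = 0.894, exact permutation p = 0.265). Of 6 genes of androgen action and synthesis, 4 were tested and 0 passed the threshold. *Rhox5*, a homeobox gene of Sertoli cells that responds to androgen, was the most abundant in CPM and had a log2 fold change of -0.05 (SE 0.09, limma voom adjusted p = 0.95).

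*Cst9*, also called testatin, and *Cst12* belong to a group of cystatin-related genes of the reproductive tract, named after the inhibitors of cysteine proteases that they resemble. They lie near each other on chromosome 2, with *Cst8* and *Cst13* between them. *Cst12* runs from 148789361 to 148793546 and *Cst9* from 148835147 to 148838738, with 45.8 kb between their starts, and each has 3 exons. Their longest transcripts, aligned end to end, were identical at 53.3% of the bases of the longer, and 0 of their 100-base windows were shared with another gene, so their counts can be told apart. *Cst9* lay between 9.74 and 10.14 in controls (median 9.96) and between 9.56 and 9.96 in MSUS samples (median 9.84). 3 controls were above every MSUS sample and 3 MSUS samples were below every control. Its log2 fold change of -0.15 (SE 0.07, 95% interval -0.31 to 0.0026) was just short of the threshold (limma voom p = 0.0536, adjusted p = 0.878, exact permutation p = 0.0851). *Cst12* lay between 9.44 and 9.79 in controls (median 9.60) and between 9.32 and 9.78 in MSUS samples (median 9.64). Its MSUS samples spread around the controls, with 3 below every control, and its log2 fold change was -0.05 (SE 0.08, 95% interval -0.22 to 0.12, limma voom p = 0.556, adjusted p = 0.944, exact permutation p = 0.594).

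The pair stood out from most of its surroundings. Of 14 protein-coding genes within 250 kb of *Cst9*, 10 were matched in the table and 3 had at least 100 CPM in controls, *Cst9*, *Cst12* and *Cst3*. *Cst3* encodes cystatin C, a secreted inhibitor of cysteine proteases, and had 314 CPM per kb. *Cst8*, between *Cst12* and *Cst9*, had 10.7 CPM per kb, *Cst13* 2.39, *Cstl1* 2.25 and *Cst11* 0.266. Genes with low levels thus lie between the abundant ones. Of 9 other cystatins, 8 were in the table and 4 were tested, and *Cst3* was the 1 that passed the threshold. Its level was 8.63 ± 0.17 (SD, n = 6) in controls and 8.45 ± 0.17 (SD, n = 7) in MSUS samples (log2 fold change -0.18, SE 0.08, limma voom adjusted p = 0.878). Of 10 cathepsins, most of them cysteine proteases that cystatins inhibit, 8 were tested and 0 passed. *Ctsl*, cathepsin L, a well-known product of Sertoli cells, had 474 CPM per kb in controls and a log2 fold change of -0.04 (SE 0.08, limma voom adjusted p = 0.958).

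**Figure D3:**
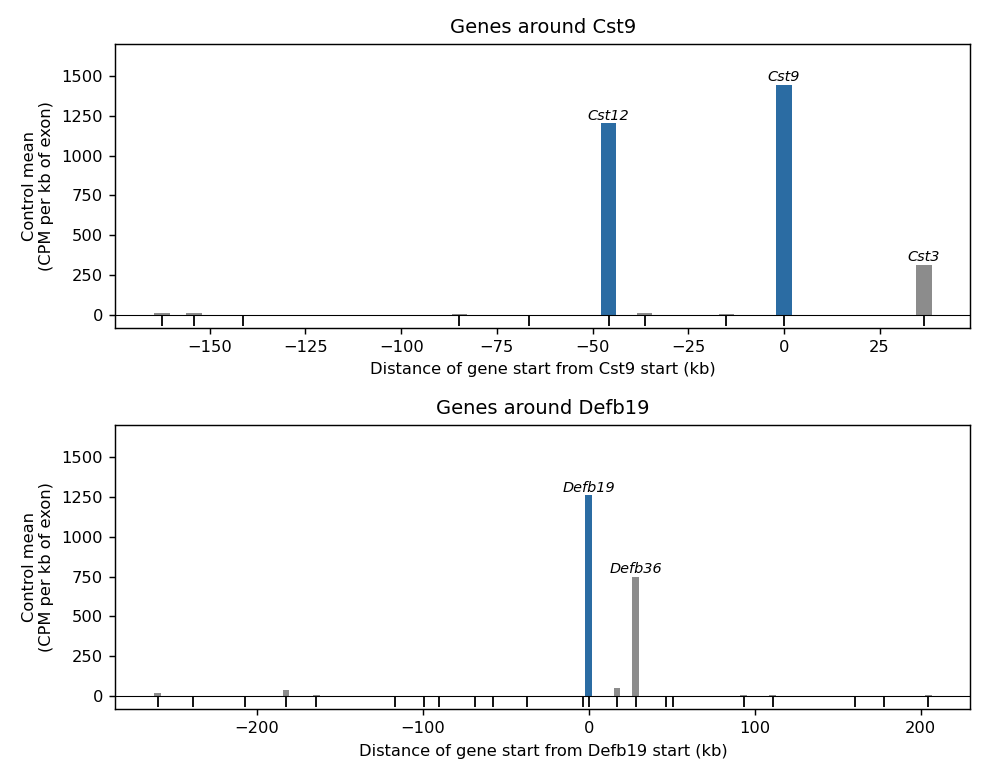
Mean control level (CPM per kb of exon) of the protein-coding genes in the table around *Cst9* (top) and *Defb19* (bottom), against the distance of each gene's start from the start of *Cst9* or *Defb19* in kb. Ticks below the axis mark every gene drawn, blue bars are genes of the set, and *Cst9*, *Cst12* and *Cst3* above and *Defb19* and *Defb36* below stand out from lower neighbours.

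The sequences before the RefSeq starts of *Cst9* and *Cst12* are shown because these neighbours are both abundant and vary together. They are the 250 bases before the start of each gene in RefSeq (GRCm38.p6, plus strand, chr2:148834897-148835146 for *Cst9* and chr2:148789115-148789364 for *Cst12*), and capitals mark the letters ACAAAG, a SOX motif, or their complement.
Cst9: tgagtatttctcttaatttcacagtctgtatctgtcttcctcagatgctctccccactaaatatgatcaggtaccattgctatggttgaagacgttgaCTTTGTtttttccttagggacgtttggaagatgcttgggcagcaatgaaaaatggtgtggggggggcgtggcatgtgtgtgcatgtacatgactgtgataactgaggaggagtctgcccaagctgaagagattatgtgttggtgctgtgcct
Cst12: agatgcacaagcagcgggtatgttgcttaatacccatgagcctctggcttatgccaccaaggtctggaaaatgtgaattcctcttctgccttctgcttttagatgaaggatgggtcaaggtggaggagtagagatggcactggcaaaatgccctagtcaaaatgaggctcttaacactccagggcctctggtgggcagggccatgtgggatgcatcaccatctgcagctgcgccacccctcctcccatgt
Aligned end to end, the stretches were identical at 51.6% of their bases. In all, 6 motifs were searched on both strands. For the androgen response element the hexamer searched was AGAACA. The other motifs, known from promoters in general or from Sertoli cell regulators, were the letters TATAAA of the TATA box, the letters AGATAA of GATA factors, the letters CCAAT of the box of that name and the letters GGGCGG of the GC box. Matches may overlap each other. Positions are counted from the start, negative upstream, to the leftmost printed letter of a motif. *Cst9* held ACAAAG on the minus strand at position -152, as did 16.5% of 32851 RefSeq promoters of the same length on either strand. *Cst12* held 0 of these 6 motifs. Entries were matched for 7 of the 10 genes, with 8 starts because *Cp* has 2, and not for *Clu*, *Trf* and *Defb19*. RefSeq and GENCODE vM21 starts can differ. By GENCODE the stretch of *Sparc* lies inside the gene, and those of *Tuba3b*, *Cst12* and the later start of *Cp* reach into the gene.

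*Serpina5* encodes protein C inhibitor, a serpin that blocks serine proteases such as plasminogen activators and acrosin and is needed for male fertility in mice. It lies on chromosome 12 from 104101113 to 104106137. Controls lay between 9.09 and 9.34 (median 9.29) and MSUS samples between 9.05 and 9.45 (median 9.12). MSUS 1 was above every control, while the other 6 MSUS samples were below the control mean. The difference was -0.08 on the log2 scale (SE 0.07, 95% interval -0.21 to 0.06, limma voom p = 0.258, adjusted p = 0.897, exact permutation p = 0.269). Of 15 other serpins, 7 were tested and 0 passed the threshold. The most abundant of them, *Serpinb6a*, an intracellular serpin, had 27.6 CPM per kb in controls against 282 for *Serpina5*. Among 6 genes for plasminogen activation and coagulation, only *Plat*, tissue plasminogen activator, had enough counts to be tested, with a log2 fold change of 0.14 (SE 0.09, limma voom adjusted p = 0.878).

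*Sparc* encodes osteonectin, a matricellular glycoprotein that binds collagen and calcium. It lies on chromosome 11 from 55394500 to 55423183 and has 12 exons in its longest transcript. Controls lay between 11.25 and 11.53 (median 11.40) and MSUS samples between 11.16 and 11.51 (median 11.29). 6 of 7 MSUS samples were below the control mean and 3 were below every control, with MSUS 23 as the exception at the top. A log2 fold change of -0.11 (SE 0.06, 95% interval -0.23 to 0.02) did not pass the threshold (limma voom p = 0.0823, adjusted p = 0.878, exact permutation p = 0.101). Of 7 relatives of *Sparc*, 5 were tested, 0 passed, and 1 had a log2 fold change below 0. *Spock2*, a secreted proteoglycan and the most abundant relative, had 181 CPM per kb in controls and a log2 fold change of 0.08 (SE 0.08, limma voom adjusted p = 0.903).

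The sequences before the RefSeq starts of *Serpina5*, *Sparc* and *Shbg* are shown because each held the letters of the androgen response hexamer. They are the 250 bases before the RefSeq starts on GRCm38.p6, at chr12:104100863-104101112 on the plus strand for *Serpina5*, chr11:55420081-55420330 on the minus strand for *Sparc* and chr11:69617906-69618155 on the minus strand for *Shbg*. The stretch of *Sparc* lies wholly inside the gene as annotated in GENCODE vM21 (55394500 to 55423183), so it is upstream of an internal RefSeq start only. Capitals mark any of the 6 motifs or its complement.
Serpina5: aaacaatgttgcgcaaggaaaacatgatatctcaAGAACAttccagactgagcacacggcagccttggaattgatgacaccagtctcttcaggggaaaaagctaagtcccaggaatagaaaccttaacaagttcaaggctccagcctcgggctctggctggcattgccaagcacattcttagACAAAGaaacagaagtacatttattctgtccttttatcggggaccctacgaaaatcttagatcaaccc
Sparc: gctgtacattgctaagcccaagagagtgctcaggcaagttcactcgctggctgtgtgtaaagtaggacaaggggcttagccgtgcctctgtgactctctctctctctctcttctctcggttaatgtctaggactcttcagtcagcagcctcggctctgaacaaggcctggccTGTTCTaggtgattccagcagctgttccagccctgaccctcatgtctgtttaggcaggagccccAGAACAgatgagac
Shbg: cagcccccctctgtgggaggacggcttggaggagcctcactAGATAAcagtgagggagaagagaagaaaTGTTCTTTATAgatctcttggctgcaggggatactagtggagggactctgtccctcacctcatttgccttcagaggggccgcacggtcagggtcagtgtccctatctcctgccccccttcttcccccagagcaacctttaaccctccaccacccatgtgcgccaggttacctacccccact
The letters AGAACA were found at position -216 of *Serpina5*, at -14 and, on the other strand, at -78 of *Sparc*, and on the other strand at -181 of *Shbg*. They were in 4 of the 8 promoters of the set, those of *Cp*, *Serpina5*, *Shbg* and *Sparc*, against 16.1% of all promoters. ACAAAG was in 4 of 8 (both of *Cp*, *Cst9* and *Serpina5*) against 16.5%, and AGATAA in 1 of 8, *Shbg*, against 9.99%. TATAAA was in 2 of 8, *Cp* and *Shbg*, against 12.4%, and in *Shbg* it shares a letter with AGAACA. A match of letters is no evidence of binding, and binding was not measured.

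*Defb19* encodes a beta-defensin, a small cationic antimicrobial peptide. It lies on chromosome 2 from 152576086 to 152580312 and has 2 exons. Its level was 8.69 in the lowest, 8.97 in the median and 9.17 in the highest control sample. In MSUS samples the lowest level was 8.62, the median 8.70 and the highest 8.93. All 7 MSUS samples were below the control mean, 3 of them below every control, and 3 controls were above every MSUS sample, while control 10 lay among the lowest MSUS samples. *Defb19* was lower in MSUS with a log2 fold change of -0.18 (SE 0.08, 95% interval -0.35 to -0.01), which is 0.882 times the control level (limma voom p = 0.0374, adjusted p = 0.878, exact permutation p = 0.0676). Its p had rank 575 among the 14421 genes tested. The call was lost when MSUS 1, 5, 11 or 26 or control 9, 14 or 24 was left out, with p between 0.0614 and 0.104 and log2 fold changes between -0.17 and -0.14.

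In the defensin cluster around *Defb19*, 24 protein-coding genes lie within 250 kb, 22 were matched in the table and 12 of these had under 1 CPM in controls. *Defb36*, another beta-defensin with a start 28.2 kb away, was the only other defensin of the cluster above 100 CPM, with 748 CPM per kb. *Defb45*, between them, had 48.4 CPM per kb. *Defb23*, *Defb25*, *Defb26* and *Defb29* had 0 counts in all 13 samples, and *Defb21* and *Defb22* had at most 1. *Defb36* did not pass the threshold, with 8.45 ± 0.12 (SD, n = 6) in controls and 8.39 ± 0.13 (SD, n = 7) in MSUS samples (log2 fold change -0.05, SE 0.07, limma voom adjusted p = 0.929). Of 14 other defensins and Kunitz or WAP-domain genes, 7 were tested and 1 passed. This was *Wfdc6a*, a WAP four-disulfide core gene, with 6.53 ± 0.11 (SD, n = 6) in controls and 6.37 ± 0.12 (SD, n = 7) in MSUS samples (log2 fold change -0.16, SE 0.07, limma voom adjusted p = 0.878).

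*Tuba3b* encodes an alpha-tubulin with a known role in testis, and it varied most between samples among the well-measured genes of the set. It lies on chromosome 6 from 145615757 to 145621479. Controls lay between 6.94 and 7.56 (median 7.22) and MSUS samples between 6.41 and 7.61 (median 7.13). The MSUS range enclosed the control range, with 3 samples below every control and MSUS 11 above every control. Its SD within groups, 0.32, was higher than that of 97.1% of the 1303 genes tested with a mean level within 0.5 log2 units. MSUS minus control, the log2 fold change was -0.22 (SE 0.15, 95% interval -0.53 to 0.08, limma voom p = 0.143, adjusted p = 0.878, exact permutation p = 0.245). The longest transcript of *Tuba3b* was aligned end to end with that of *Tuba3a*, another alpha-tubulin gene. The 2 were identical at 1444 of 1775 bases (81.4% of the longer of the 2), and the encoded proteins were not compared. Of the windows of *Tuba3b*, 10.4% of those of 100 bases and 38.6% of those of 31 bases are also in *Tuba3a*. The estimated counts of *Tuba3b* were not whole in 12 of 13 samples, and it received 47.8% to 53.6% of the counts of the pair. For the summed counts of both genes the log2 fold change was -0.19 (SE 0.15, 95% interval -0.51 to 0.13, limma voom adjusted p = 0.891), close to that of *Tuba3b* alone. Of 7 other alpha-tubulins, 6 were tested and 0 passed, and *Tuba1a*, the most abundant, had 344 CPM per kb in controls and a log2 fold change of -0.07 (SE 0.10, limma voom adjusted p = 0.937).

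*Tuba3b* and *Tuba3a* varied together across samples, which cannot be told apart from how their shared reads were divided. The sequences before the RefSeq starts of *Tuba3b* and *Tuba3a* are shown because the genes share reads. They are the 250 bases before the RefSeq starts on GRCm38.p6, at chr6:145615713-145615962 on the plus strand and chr6:125286082-125286331 on the minus strand, with the letters of the CCAAT box and the GC box, or their complement, in capitals.
Tuba3b: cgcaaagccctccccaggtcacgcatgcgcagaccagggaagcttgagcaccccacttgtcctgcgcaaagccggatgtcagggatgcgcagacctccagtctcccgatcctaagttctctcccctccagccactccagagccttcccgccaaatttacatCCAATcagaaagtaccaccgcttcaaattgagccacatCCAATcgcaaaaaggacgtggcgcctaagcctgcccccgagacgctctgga
Tuba3a: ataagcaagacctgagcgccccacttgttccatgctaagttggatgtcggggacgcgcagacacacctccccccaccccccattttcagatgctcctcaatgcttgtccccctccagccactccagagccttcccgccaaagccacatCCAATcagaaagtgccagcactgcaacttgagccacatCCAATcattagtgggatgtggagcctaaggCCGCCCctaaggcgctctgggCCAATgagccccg
Aligned end to end, the stretches were identical at 69.2% of their bases. *Tuba3b* held CCAAT at positions -89 and -51, and *Tuba3a* at -102, -64 and -13. By GENCODE vM21 *Tuba3b* starts at 145615757, within its stretch, so both of its CCAAT matches lie inside the gene by that annotation. CCAAT was in 2 of the 8 promoters of the set, those of *Cp* and *Tuba3b*, against 33.8% of all promoters. GGGCGG was in 0 of 8, against 32.7%, and was found in *Tuba3a*.

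Several of the genes varied together between samples. Of 45 pairs, 10 had an adjusted p under 0.05 for Pearson's r over the 13 samples (two-sided permutation tests with 100000 resamples, Benjamini-Hochberg over the pairs), and all 10 were among *Clu*, *Cst9*, *Cst12*, *Serpina5*, *Sparc* and *Defb19*. The median r over the 45 pairs was 0.281, against -0.00302 over all pairs of genes tested. The share of all gene pairs that would pass was not computed, so the count of 10 has no background beside it. In these 10 pairs, between 0.0139% (*Cst9* and *Defb19*) and 3.28% (*Cst12* and *Defb19*) of genes tested had a higher r to a gene of the pair. Varying together was therefore not particular to the set. The pair with the highest correlation was *Cst9* and *Defb19*, with r = 0.933 (permutation p = 1e-05, adjusted p = 0.00045) and rho = 0.956 (permutation p = 1e-05, adjusted p = 0.00045), where 1e-05 is the smallest p these resamples can give. It held without the 2 samples farthest from the median (r = 0.967), within controls (r = 0.995) and within MSUS samples (r = 0.842). *Clu* and *Serpina5* followed with r = 0.862 (permutation p = 0.00021, adjusted p = 0.00315), rho = 0.879 (permutation p = 0.00016, adjusted p = 0.0036) and 0.869 without the 2 farthest samples. *Sparc* and *Defb19* had r = 0.859 (permutation p = 0.00017, adjusted p = 0.00315), rho = 0.830 (permutation p = 0.00095, adjusted p = 0.0128) and 0.823 without the 2 farthest samples. For the neighbours *Cst9* and *Cst12* r was 0.824 (permutation p = 0.00044, adjusted p = 0.0045), rho was 0.802 (permutation p = 0.00142, adjusted p = 0.0128) and r was 0.789 without the 2 farthest samples. *Trf*, *Cp*, *Shbg* and *Tuba3b* took part in 0 of the 10 pairs. When only the library size was used for scaling, 5 pairs passed, and without control 24, 6 pairs passed. All values of a sample share its library and its normalization.

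**Figure D4:**
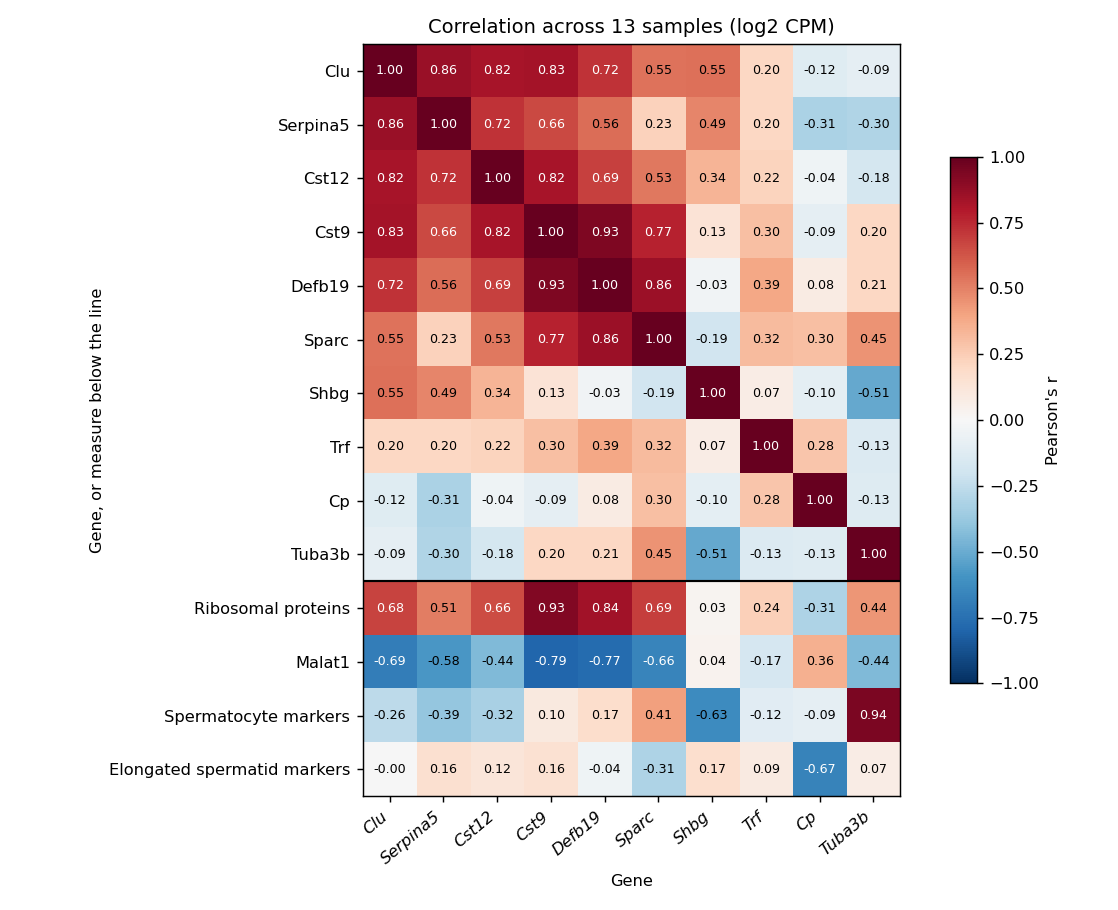
Pearson's r across the 13 samples between the 10 genes (above the line) and with the ribosomal protein score, the *Malat1* level and 2 marker scores (below the line), from -1 (blue) to 1 (red). *Clu*, *Serpina5*, *Cst12*, *Cst9*, *Defb19* and *Sparc* form a block of positive r, and *Tuba3b* is high with the spermatocyte markers only (0.94).

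Of the 6 genes of this block, 2, *Cst9* and *Defb19*, also passed for r with features of the whole library, and *Sparc* passed for rho with 1 of them. *Malat1*, a long non-coding RNA of the nucleus, had levels of 9.93 ± 0.56 (SD, n = 6) in controls and 10.63 ± 0.43 (SD, n = 7) in MSUS samples. The genes were set against *Malat1*, a score of 83 ribosomal protein genes, spermatocyte and elongated spermatid marker scores and the library size, which gave 50 relations, 5 of them with an adjusted p under 0.05 for r. *Defb19* was lower where *Malat1* was higher (r = -0.772, permutation p = 0.0019, adjusted p = 0.019; rho = -0.775, permutation p = 0.00297, adjusted p = 0.0297; r = -0.602 without the 2 farthest samples), in controls (r = -0.812) and in MSUS samples (r = -0.451). *Cst9* did so too (r = -0.793, permutation p = 0.00141, adjusted p = 0.0176; rho = -0.786, permutation p = 0.00216, adjusted p = 0.027; r = -0.677 without the 2 farthest samples). With the ribosomal protein score, r was 0.927 for *Cst9* (permutation p = 1e-05, adjusted p = 0.00025; rho = 0.918, permutation p = 4e-05, adjusted p = 0.002; r = 0.868 without the 2 farthest samples). For *Defb19* it was 0.842 (permutation p = 0.00023, adjusted p = 0.00383; rho = 0.896, permutation p = 0.00012, adjusted p = 0.003; r = 0.904 without the 2 farthest samples). For r, *Clu*, *Cst12*, *Serpina5* and *Sparc* did not pass with either measure, with adjusted permutation p between 0.0589 and 0.397. The lowest of these belonged to *Clu* with *Malat1* (r = -0.695) and to *Sparc* with the ribosomal protein score (r = 0.691). In that relation of *Sparc*, rho was 0.742 and passed (permutation p = 0.00521, adjusted p = 0.0434). With the *Malat1* level as covariate the log2 fold change of *Defb19* was -0.03 and with the ribosomal protein score -0.08 (limma voom), and under either covariate 0 of the 10 genes passed the threshold. The median log2 fold change of the 10 genes, -0.09 without a covariate, was 0.0041 with *Malat1*, with 5 genes above and 5 below 0. With the *Malat1* level removed from each gene, also chosen after seeing the data, 8 of the 45 pairs of genes passed for r. Some were new, namely *Clu* with *Shbg* (r = 0.798), the rarely counted *Cp* with *Sparc* (r = 0.764) and *Serpina5* with *Tuba3b* (r = -0.768). Others no longer passed, such as *Clu* with *Defb19* and *Cst9* with *Sparc*. The part of these features in the difference between the groups was not tested.

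The correlation with library size differed in size between the samples pooled and the controls alone, which was not tested. For *Defb19*, r with the log2 of the named counts was -0.950 within the 6 controls, -0.209 within the MSUS samples and -0.360 over all 13 (permutation p = 0.230, adjusted p = 0.468; rho = -0.313, permutation p = 0.300, adjusted p = 0.556; r = -0.251 without the 2 farthest samples). Control 10, with the most named counts (14383367), had the lowest control level of *Clu*, *Cst9*, *Cst12*, *Serpina5*, *Sparc* and *Defb19*. Control 24, with 10750371 named counts, had the highest control level of *Clu*, *Cst9*, *Sparc* and *Defb19*. The control with the fewest named counts was control 14 (9937178), which had the highest control level of *Cst12* and *Serpina5*.

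*Tuba3b* moved with another measure. Its r with the score of the 6 spermatocyte markers was 0.942 (permutation p = 1e-05, adjusted p = 0.00025; rho = 0.824, permutation p = 0.0009, adjusted p = 0.015; r = 0.887 without the 2 farthest samples), with 0.743 within controls and 0.972 within MSUS samples. All 6 of these markers had a log2 fold change below 0 (median -0.31), 1 of them, *Sycp2*, a protein of the synaptonemal complex, passed the threshold (log2 fold change -0.34, SE 0.15, limma voom adjusted p = 0.878), and each had counts in all 13 samples. With this score as covariate the log2 fold change of *Tuba3b* was 0.0099 (limma voom). This covariate was chosen after seeing the data, and the score itself was lower in MSUS (mean -0.11 against 0.13 in controls), so the fit is no test. The part of the spermatocyte markers in the level of *Tuba3b* was not tested.

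**Figure D5:**
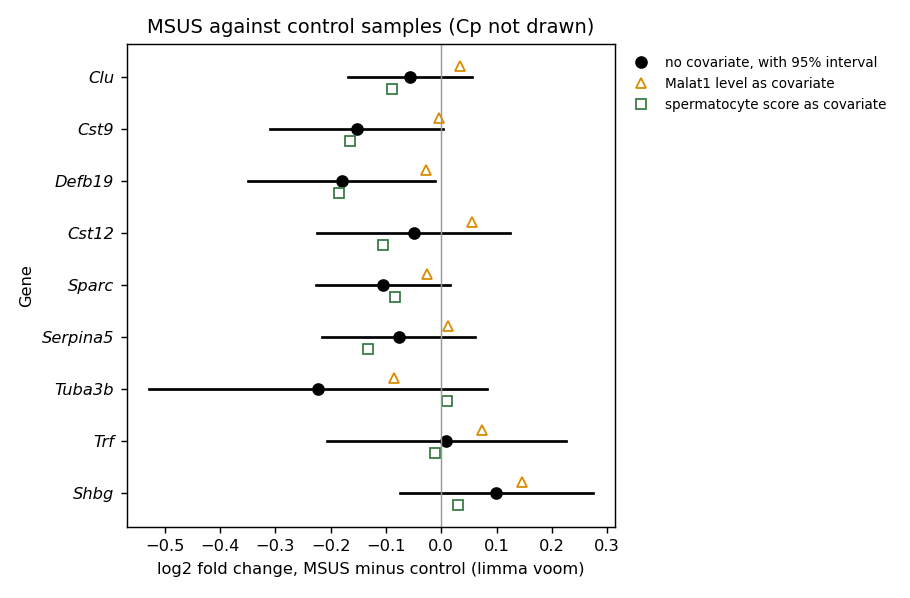
log2 fold change (MSUS minus control, limma voom) of 9 genes with its 95% interval (black), and the fold change with the *Malat1* level (triangles) or the spermatocyte marker score (squares) as covariate. Without a covariate the interval of *Defb19* alone stays below 0 (-0.35 to -0.01), and *Cp* is not drawn because its interval runs from -1.86 to 1.12.

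For each gene, the gene most like it was found by Pearson's r over the 13 samples after the group means were removed, among genes tested outside the set and without predicted genes. These values were chosen as the highest of many and are a description. *Clu* was most like *Ctsl*, cathepsin L (r = 0.961), and *Serpina5* was most like *Rhox5* (r = 0.944). *Cst9* was most like *Rplp2*, a protein of the large ribosomal subunit (r = 0.965), *Cst12* was most like *Nme1*, a nucleoside diphosphate kinase (r = 0.929), and *Defb19* was most like *Leprot* (r = 0.946). *Sparc* was most like *Folr1*, a folate receptor (r = 0.918). *Tuba3b* was most like *Ggnbp1*, a testis gene named for binding gametogenetin (r = 0.966). The likeness was lower for *Shbg*, whose highest r was 0.865 with *Sugt1*, and for *Trf*, with 0.832 for *Ndufa8*, a subunit of respiratory complex I. *Cp* was most like *Acsf2* (r = 0.940), a value that rests on 1 to 23 counts of *Cp* per sample.

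Other secreted products of Sertoli cells were described as a list of 17 genes, of which 16 were in the table and 13 were tested. Of these, 0 passed the threshold, 12 of 13 had a log2 fold change below 0, and the median was -0.06. *Ctsl* was the most abundant of them in CPM. The 9 Sertoli cell markers, with *Ctsl* among them, had a median log2 fold change of -0.05, 7 of 9 were below 0 and 0 passed.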

How the data were processed

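RNA of 13 Sertoli cell samples was made into libraries with a stranded total RNA kit for low input over 12 PCR cycles and read over 100 bases. The authors trimmed the reads with Trim Galore 0.6.5 and assigned them to GENCODE transcripts with Salmon 1.1.0 (versions from the submitters' processing notes), and they deposited estimated counts per gene without normalization. How transcripts were summed to genes and the strand setting are not given in the sources used here, so antisense overlaps such as that of *Cp* and *Hps3* may share reads.

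Estimated counts were first rounded to integers. Of 54281 features, 27170 have no gene name, held 20.7% to 26.7% of the counts per sample and entered neither library sizes nor tests. Counts were filtered by filterByExpr, with library sizes taken over the genes kept, and normalized by TMM (edgeR 4.0.16). They were then transformed with voom and tested in limma 3.58.1 (R 4.3.3), two-sided, MSUS against control, without a covariate. TMM, voom and limma are those of the study's methods. The Benjamini-Hochberg adjustment covers the 14421 genes tested. Intervals are at 95%. The script was tested on simulated data. Permutations for the correlations were drawn with numpy 2.4.6, and rho was computed with scipy 1.17.1. The spread between samples, in which mouse and library preparation cannot be told apart, limits the precision, and for *Cp* so do its low counts.

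The gene set, the gene lists and the markers were chosen with earlier results of these data known. Named genes are the 10 genes, the most abundant member and every member with p under 0.05 of each related list, and the gene most like each of the 10; others named beside these are neighbours on the chromosome or were chosen after their values were seen. The named features were matched to exon lengths of GENCODE vM21 for 84.5%, and reads shared between genes were searched in transcripts of the same release. Alternatives were edgeR's quasi-likelihood test, DESeq2 1.42.0, sample quality weights, other normalizations and count filters, covariates, another length and leaving out each sample. The *Malat1*, ribosomal protein and spermatocyte covariates, the sum with *Tuba3a* and the exact permutation test on log2 CPM were chosen after seeing the data.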

Additional observations from a re-analysis of the deposited data

Results flagged for a closer look

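In the 20 sets of values searched (10 genes in each of 2 groups), 0 samples stood apart from the rest of their group by Dixon's 95% limit, where chance gives about 1.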

How the results depend on the processing

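No paired analysis was possible because the groups share no replicate number. The number of the 10 genes with p under 0.05 (1) was 3 with upper quartile or library size scaling and with no filter other than 1 count, 2 with the elongated spermatid score, and 0 with sample quality weights, with the exact permutation test or with the Sertoli score, the *Malat1* level or the ribosomal protein score as covariate. Leaving out each sample gave 0 to 3. The genes added were *Cst9* and *Sparc*. Without MSUS 1 *Serpina5* passed in place of *Defb19*, and without MSUS 11 *Tuba3b* did. With the spermatocyte score the count stayed at 1, but the gene was *Serpina5* and no longer *Defb19*. The 781 genes with p under 0.05 became 1182 with no filter, 1204 with the elongated spermatid score and 401 with *Malat1*, and 534 to 1121 without 1 sample. *Defb19* passed the threshold in 16 of 29 alternatives, with log2 fold changes from -0.23 to -0.03 and adjusted p from 0.558 to 0.999. The median log2 fold change of the set turned to 0.0041 with *Malat1* as covariate, and was between -0.12 and -0.04 in the other 27 alternatives. The 10 correlated pairs became 5 with library size scaling, 8 with the *Malat1* level removed and 6 to 14 without 1 sample.

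Signs turned only for genes that did not pass the threshold. The log2 fold change of *Trf* was -0.0213 with edgeR, -0.0168 with DESeq2, -0.0022 with upper quartile scaling, -0.0075 with library size scaling, -0.00062 with the elongated spermatid score, -0.0112 with the spermatocyte score and -0.0593 to 0.0952 without 1 sample. *Cp* was at 0.15 with edgeR, 0.14 with DESeq2 and 0.34 with the elongated spermatid score. *Cst12* was at 0.0103 with the Sertoli score, 0.0562 with *Malat1* and 0.0398 with the ribosomal protein score. With *Malat1*, *Clu* was at 0.0348 and *Serpina5* at 0.012, and with the spermatocyte score *Tuba3b* was at 0.0099. The cause was not tested. *Cp* was not tested without MSUS 5, 23 or 26, since it then failed the count filter.

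By the longest transcript in place of all exons, *Clu* had 4782, *Sparc* 1177, *Trf* 64.8 and *Cp* 0.162 CPM per kb, and the order of the 10 genes was kept. With features without a gene name kept, 9 of the 10 control levels moved by more than their SD.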
